A study of Homo sapiens with 2 samples.

Results

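The zinc finger genes of chromosome 19 were examined in CP-A, a cell line from non-dysplastic Barrett's esophagus that was immortalized with human telomerase reverse transcriptase (TERT). They were taken as every row of the expression table whose identifier places it on chromosome 19 and whose gene symbol is ZNF followed by a number and at most 1 letter. The rule used no measured value, and it found 233 genes, each with 1 row, among 17660 genes of the autosomes and X. Expression was measured on 1 Clariom S human array for the pH 6.4 + DCA culture, which had repeated exposures to acidified medium with deoxycholic acid, a secondary bile acid, with growth in basal medium between them, and on 1 array of control CP-A cells grown without acid or DCA. Both cultures carried the TERT construct and are 1 cell line. Each condition had 1 array, so no difference below has a replicate check, no test is possible, and no error is given.

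Zinc finger proteins of the C2H2 type hold tandem fingers, each folded around a zinc ion, that read short stretches of DNA. Most of those encoded on chromosome 19 also carry a KRAB box, which recruits the corepressor TRIM28 and, through it, the histone methyltransferase SETDB1, so that heterochromatin forms at the bound site. The genes arose by tandem duplication and lie in clusters, and many of their products bind retroelements. Their transcripts are known for low abundance in many tissues, and near-identical copies can share probe signal on arrays.

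All 5 epithelial markers, KRT8, KRT18, KRT19, EPCAM and CDH1, lay above the upper quartile of both arrays, at log2 levels of 10.6 to 16.5 with pH 6.4 + DCA and 12.2 to 17.1 in control. The log2 difference, pH 6.4 + DCA minus control, was below 0 in all 5 and past 2-fold in EPCAM, at -1.57, and KRT18, at -1.47, and the part of this in the results below was not tested. Of 9 measured markers of fibroblasts, leukocytes and endothelium, only CD68 lay above the upper quartile of both arrays, at 10.37 with pH 6.4 + DCA and 10.16 in control. The medians of the arrays, taken over 20893 transcript clusters, were log2 levels of 6.50 with pH 6.4 + DCA and 6.55 in control. The lower quartiles were 4.45 with pH 6.4 + DCA and 4.43 in control. Levels of different genes rest on different probes, so they are read against the array and not against each other.

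Few of the zinc finger genes differed by 2-fold between the cultures, and those that did went both ways. Differences are log2 levels with pH 6.4 + DCA minus control, and a gene is called higher or lower at 2-fold or more. Of the 233 genes, 4 were higher, 5 were lower and 224 were neither. The 9 genes are 3.86% of the family, while 6.63% of all genes passed 2-fold. By direction, 2.51% of all genes were higher and 4.12% lower. The median difference of the family was -0.04, against -0.0001 for all genes, and it took the opposite sign, 0.02, with each array centred on its median, where that of all genes was 0.06. The quartiles of the family were -0.32 and 0.23, and the extremes were -1.57 and 1.48. Differences were below 0 in 121 genes, or 51.9%, beside 50% of all genes. At 1.5-fold, 15 genes were higher, 27 lower and 191 neither.

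**Figure D1:**
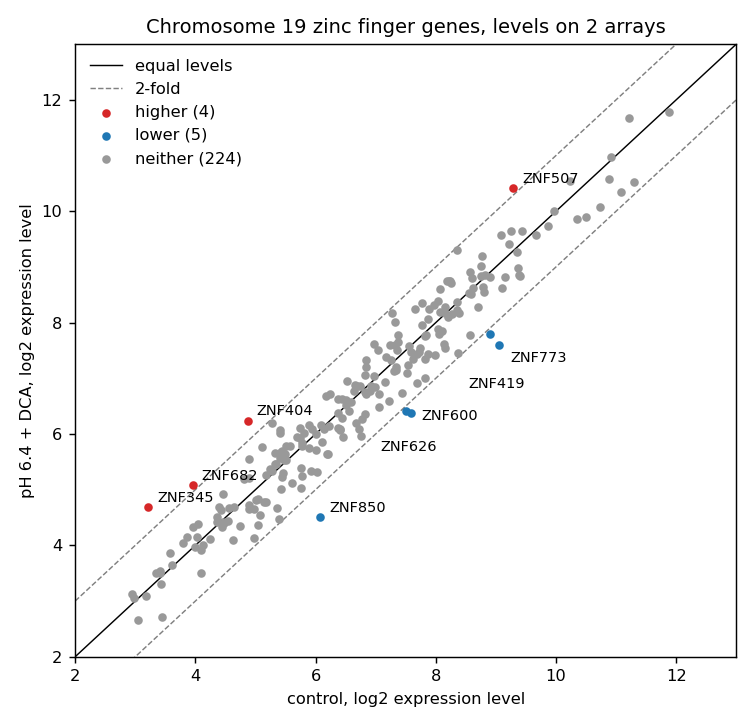
Log2 expression level of each of the 233 zinc finger genes of chromosome 19 with pH 6.4 + DCA (vertical axis) and in control (horizontal axis), 1 array each. The solid line marks equal levels and the dashed lines 2-fold; 4 genes lie above the upper dashed line, 5 below the lower one and 224 between them.

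The genes spanned most of the range of weak to moderate signal. Their log2 levels had a median of 6.63 with pH 6.4 + DCA and 6.72 in control. On at least 1 array, 130 genes reached that array's median, and these are called expressed below. On both arrays, 22 genes lay under the lower quartile and 14 above the upper quartile. Among the 130 expressed genes 1 was higher, ZNF507, and 4 were lower, so that 3.85% passed 2-fold. Of the 9548 genes that reached the same level, 9.8% passed it, 3.46% higher and 6.35% lower. The lower genes ZNF600 and ZNF626 reached the median of the control array only, where they were high. The split by direction among expressed genes thus rests in part on the filter. Of the other 4 genes past 2-fold, ZNF345, ZNF404 and ZNF682 were higher and ZNF850 was lower, all below the medians of both arrays, and a ratio there rests on a weak signal.

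The family stood between the remaining genes of its chromosome and the zinc finger genes of other chromosomes. Over expressed genes, the 130 members had a median difference of -0.07, and 71 of them, or 54.6%, were below 0. The 148 expressed ZNF genes of other chromosomes had a median of 0.15, and 37.8% of them were below 0. The 486 expressed other genes of chromosome 19 had a median of -0.19, and 63.0% were below 0. For all 9548 expressed genes the median was -0.02, with 51.6% below 0. Over genes of any level, the family's median was -0.04. The 249 ZNF genes of other chromosomes had a median of 0.09, with 45.4% below 0, and 4.82% passed 2-fold, 10 genes (4.02%) higher and 2 (0.803%) lower. For the 1023 other genes of chromosome 19 the median was -0.05, 54.7% were below 0, and 5.18% passed 2-fold, 7 genes (0.684%) higher and 46 (4.5%) lower. The order of the 3 medians over expressed genes was kept with centring, at -0.01 for the family, 0.21 for ZNF genes elsewhere and -0.13 for other genes of chromosome 19, and with quantile normalization, at -0.03, 0.20 and -0.15. These are descriptions over genes of 2 arrays, and no test of the differences between the sets was possible. The SD over the family's expressed genes was 0.46.

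**Figure D2:**
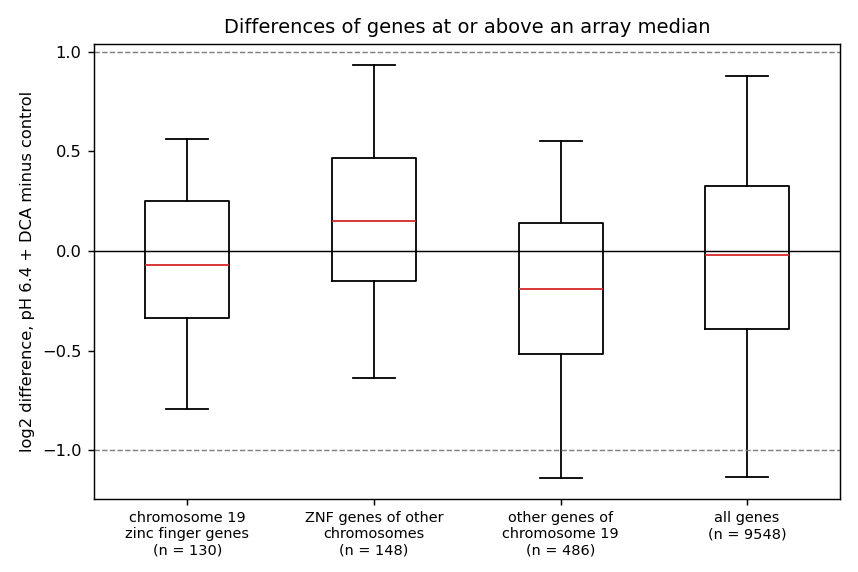
Log2 difference, pH 6.4 + DCA minus control, of genes that reached the median of at least 1 array. Boxes show the quartiles and the median (red) over genes and whiskers the 5th to 95th percentiles, with dashed lines at 2-fold; the median of the 130 zinc finger genes of chromosome 19, -0.07, lies below that of ZNF genes elsewhere, 0.15, and above that of the other genes of chromosome 19, -0.19.

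The higher gene with the strongest signal was ZNF507 (TC1900007743.hg.1). Its log2 level was 10.41 with pH 6.4 + DCA and 9.29 in control, a difference of 1.12, or 2.17-fold. It was the last gene inside the threshold among the higher ones. ZNF345 (TC1900007955.hg.1) had the largest increase of the family, at 4.69 with pH 6.4 + DCA and 3.21 in control, a difference of 1.48. ZNF404 (TC1900011972.hg.1) stood at 6.24 with pH 6.4 + DCA and 4.87 in control, a difference of 1.37. ZNF682 (TC1900010089.hg.1) stood at 5.08 with pH 6.4 + DCA and 3.95 in control, a difference of 1.13. These 3 signals were weak. After an offset of 32 on the linear scale, which damps weak signals, only ZNF507 among the 4 genes was still 2-fold higher, at 1.08, while ZNF345, ZNF404 and ZNF682 had 0.49, 0.81 and 0.47. Below 2-fold, the largest increases of expressed genes were those of ZNF780A, described below with its neighbour, and of ZNF101, at 8.16 with pH 6.4 + DCA and 7.27 in control. ZNF577 had 8.01 with pH 6.4 + DCA and 7.33 in control, and ZNF714 had 7.61 and 6.97. ZNF700, ZNF555 and ZNF426 differed by 0.60, 0.59 and 0.56.

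Lower genes were mostly expressed ones, though some reached a median on the control array alone. ZNF773 (TC1900011817.hg.1) had a log2 level of 7.59 with pH 6.4 + DCA and 9.05 in control, a difference of -1.46, or 36.3% of the control signal. Its neighbour ZNF419 (TC1900011816.hg.1), the source of a minor histocompatibility antigen, had 7.79 with pH 6.4 + DCA and 8.89 in control, a difference of -1.10. ZNF600 (TC1900012024.hg.1) differed by -1.21, with 6.37 on the pH 6.4 + DCA array against 7.58 in control. ZNF626 (TC1900011916.hg.1), the last gene inside the threshold, differed by -1.10, with 6.41 on the pH 6.4 + DCA array against 7.50 in control. All 4 of these genes reached the median of the control array, and ZNF600 and ZNF626 did not reach that of the pH 6.4 + DCA array. The lowest difference of the family, -1.57, was that of ZNF850 (TC1900010533.hg.1), at 4.51 with pH 6.4 + DCA and 6.07 in control. With the same offset of 32, ZNF773 and ZNF419 were still 2-fold lower, the first at -1.32, and ZNF600, ZNF626 and ZNF850 were not, at -0.96, -0.87 and -0.86. Just outside the threshold lay ZNF880, at -0.92. It was followed among expressed genes by ZNF175, which encodes a repressor of HIV transcription in macrophages, at -0.82, and by ZNF534 and ZNF440, at -0.80 and -0.79. ZNF534, at 5.96 with pH 6.4 + DCA and 6.76 in control, also reached the median of the control array only.

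**Figure D3:**
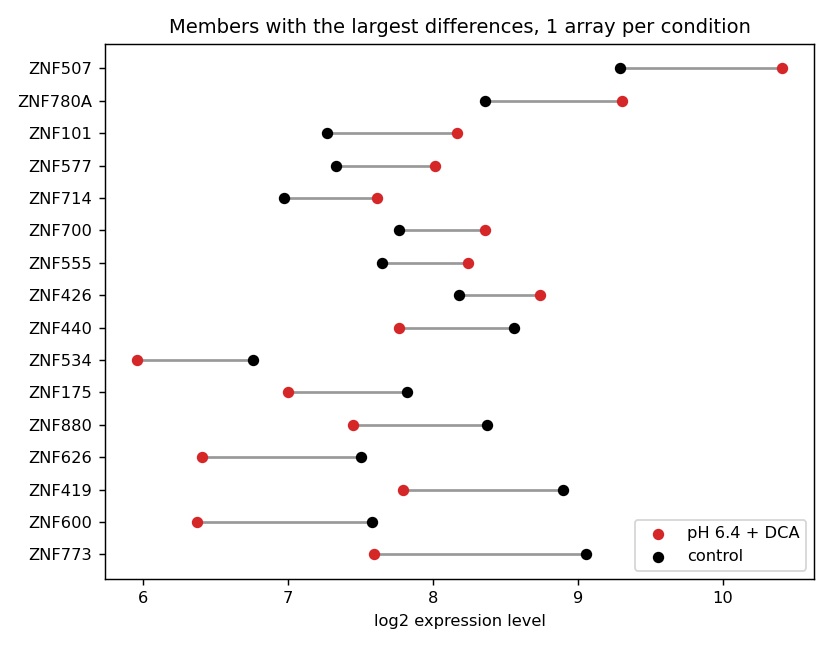
Log2 expression level with pH 6.4 + DCA (red) and in control (black) of the 8 expressed zinc finger genes with the largest increases and the 8 with the largest decreases, 1 array per condition. ZNF507 at the top and ZNF419, ZNF600, ZNF626 and ZNF773 among the lower ones differ by 2-fold or more, and the remaining 11 by less.

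The 6 members with the brightest signals differed by less than 2-fold in either direction. Of all genes that reached an array median 9.8% passed 2-fold, so nothing is read from this for so few genes. ZNF146 encodes a protein made of fingers with no KRAB box, and its log2 level was 11.78 with pH 6.4 + DCA and 11.88 in control. ZNF121 stood at 11.66 with pH 6.4 + DCA and 11.21 in control, and ZNF283 at 10.98 and 10.91. ZNF134 had 10.58 with pH 6.4 + DCA and 10.88 in control. ZNF264 and ZNF585B had differences of -0.77 and -0.75, with 10.53 and 10.34 on the pH 6.4 + DCA array against 11.30 and 11.08 in control.

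Zinc finger genes with a known role had small differences of either sign. None of the 13 genes of this list passed 2-fold, beside 3.86% of the family and 6.63% of all genes, so the count of 0 is no result about them. They had a median difference of 0.02, beside -0.0001 for all genes, with 7 above 0 and 6 below. Among those that silence retroelements, ZNF91, a repressor of SVA elements in humans, stood at 8.74 with pH 6.4 + DCA and 8.22 in control, a difference of 0.52. ZNF93, which binds LINE elements, had 5.53 with pH 6.4 + DCA and 5.51 in control. ZNF649 and ZNF765, also linked to LINE elements, differed by 0.04 and 0.21, and ZNF382, described as a tumor suppressor, by 0.16. ZNF274, whose product brings SETDB1 to the ends of zinc finger genes, stood at 5.39 with pH 6.4 + DCA and 5.76 in control. ZNF473, a factor of histone mRNA processing, had 8.62 with pH 6.4 + DCA and 8.63 in control, a difference of -0.0006, which was above 0 with each array centred on its median. The largest decrease in the list was that of ZNF675, an inhibitor of TRAF6 signalling, at 8.62 with pH 6.4 + DCA and 9.10 in control. ZNF350, a partner of BRCA1, differed by -0.26, ZNF420, a regulator of p53, by -0.05, ZNF224, a repressor of the aldolase A gene, by 0.26, and ZNF304, which takes part in silencing of the INK4-ARF locus in colorectal cancer cells, by 0.16.

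Zinc finger genes that are often methylated at their promoters in cancers gave weak signals in both cultures. These were ZNF132, ZNF154, ZNF331, ZNF382, ZNF471, ZNF582, ZNF671 and ZNF677. None of the 8 reached the median of either array, and none passed 2-fold, from which, beside 6.63% of all genes, nothing is read for a list this short. Their medians were 4.29 with pH 6.4 + DCA and 4.55 in control, and their differences had a median of 0.05, with 5 above 0 and 3 below. The lowest signals were those of ZNF471, at 3.30 with pH 6.4 + DCA and 3.43 in control, and ZNF671, at 3.50 and 3.35, under the lower quartiles of both arrays. The largest difference of the list was -0.53, in ZNF132, at 4.10 with pH 6.4 + DCA and 4.63 in control. ZNF331, an imprinted gene, had 5.34 with pH 6.4 + DCA and 5.28 in control. Promoter methylation was not analysed here.

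The cofactors through which KRAB zinc finger proteins repress were measured for 22 of the 23 genes listed. None passed 2-fold, and with 6.63% of all genes past it, a list of this size would hold few, so nothing is read from the count. The median of their differences was 0.02, with 10 below 0. The corepressor TRIM28 had 10.62 with pH 6.4 + DCA and 10.60 in control, and SETDB1 9.34 and 9.32, so that neither differed by more than 0.03. In the HUSH complex, which silences retroelements, MPHOSPH8 stood at 6.78 with pH 6.4 + DCA and 5.87 in control, the largest difference of the list at 0.91. TASOR and PPHLN1 of the same complex differed by 0.55 and 0.29, and MORC2, which works with it, by 0.60. Of the heterochromatin proteins, CBX3 differed by 0.64 and CBX1 by -0.46. The lowest difference was that of the histone methyltransferase SUV39H1, at 8.62 with pH 6.4 + DCA and 9.19 in control, followed by UHRF1, a partner of DNA methyltransferase, at 7.39 and 7.90. DNMT1 itself had 7.35 with pH 6.4 + DCA and 7.40 in control.

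Along the chromosome, clusters of zinc finger genes differed in the balance of positive and negative differences. A cluster was taken as at least 5 members in gene order with at most 3 other measured genes between neighbours, which gave 10 clusters, numbered in order along the chromosome, with 213 of the 233 genes. The clusters had medians above 0 in 7 cases and below 0 in 3. Cluster 5, from ZNF302 to ZNF792, had 4 of 5 genes above 0 and a median of 0.42. Its highest member was ZNF30, at 6.08 with pH 6.4 + DCA and 5.41 in control, and its lowest ZNF599, at -0.28. In cluster 2, from ZNF317 to ZNF846, 6 of 9 genes were above 0, with a median of 0.20 and a range from -0.39 in ZNF560 to 0.56 in ZNF426. In cluster 7, from ZNF283 to ZNF180, 14 of 20 genes were above 0, with a median of 0.11, and over its 13 expressed genes the median was 0.19. It held ZNF404, the highest, while ZNF229 was lowest at -0.66.

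The reverse balance was seen in 3 clusters. In cluster 3, from ZNF653 to ZNF791, 18 of 26 genes were below 0, with a median of -0.17 and a range from -0.92 in ZNF433 to 0.91 in ZNF653. In cluster 8, from ZNF577 to ZNF331, 23 of 35 genes were below 0, with a median of -0.13, and 19 of its 26 expressed genes were below 0, with a median of -0.20. Here ZNF577 was the highest, at 0.68, and ZNF600 the lowest. In cluster 10, from ZNF787 to ZNF446, the largest with 51 genes, 31 were below 0, with a median of -0.07, from -1.46 in ZNF773 to 0.65 in ZNF470. The 17 other genes that lie between members of cluster 10 had a median of -0.12, and the 6 between members of cluster 8 had 0.04. Other genes here and above include zinc finger genes with symbols outside the rule, such as ZSCAN4 and ZFP28, and the readthrough entry ZNF816-ZNF321P.

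The remaining clusters had medians of 0.05 to 0.11. Cluster 4, from ZNF101 to ZNF254, had 18 of 33 genes above 0 and a median of 0.06, but -0.13 over its 19 expressed genes, and it held both ZNF682 and ZNF626. Of these 19, ZNF626, ZNF737 and ZNF257, at -1.10, -0.57 and -0.47, reached the median of the control array only, where they were high. The sign of the median over expressed genes of cluster 4 thus rests on the filter. Cluster 6, from ZNF565 to ZNF573, had a median of 0.05 over 24 genes, but -0.10 over its 9 expressed genes, 5 of them below 0, and it held the family's highest and lowest differences, those of ZNF345 and ZNF850. Cluster 1, from ZNF554 to ZNF77, had a median of 0.11 over 5 genes, from -0.74 in ZNF556, at 2.71 with pH 6.4 + DCA and 3.45 in control, to 0.59 in ZNF555. Cluster 9, from ZNF628 to ZNF784, had a median of 0.06 over 5 genes, from -0.38 in ZNF524 to 0.19 in ZNF628. With genes under the 25th percentile of mean level left out, the median of cluster 9 was -0.20, while no other cluster median took the opposite sign with that filter, with centring, quantile normalization or a lowess trend removed, or with 32 added on the linear scale. Over expressed genes, however, clusters 4, 6 and 9 had medians below 0, the last with 1 such gene. Then 6 of the 10 medians were below 0, but this count includes cluster 4, whose sign rests on the filter. No conclusion is drawn from the count. The 20 members outside clusters had a median of 0.02 and included ZNF507 and ZNF780A. Neighbouring members shared the sign of their difference in 99 of 180 pairs, or 55.0%, and neighbouring other genes of chromosome 19 in 494 of 969, or 51.0%, so the sign of a member said little about that of the gene next to it.

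**Figure D4:**
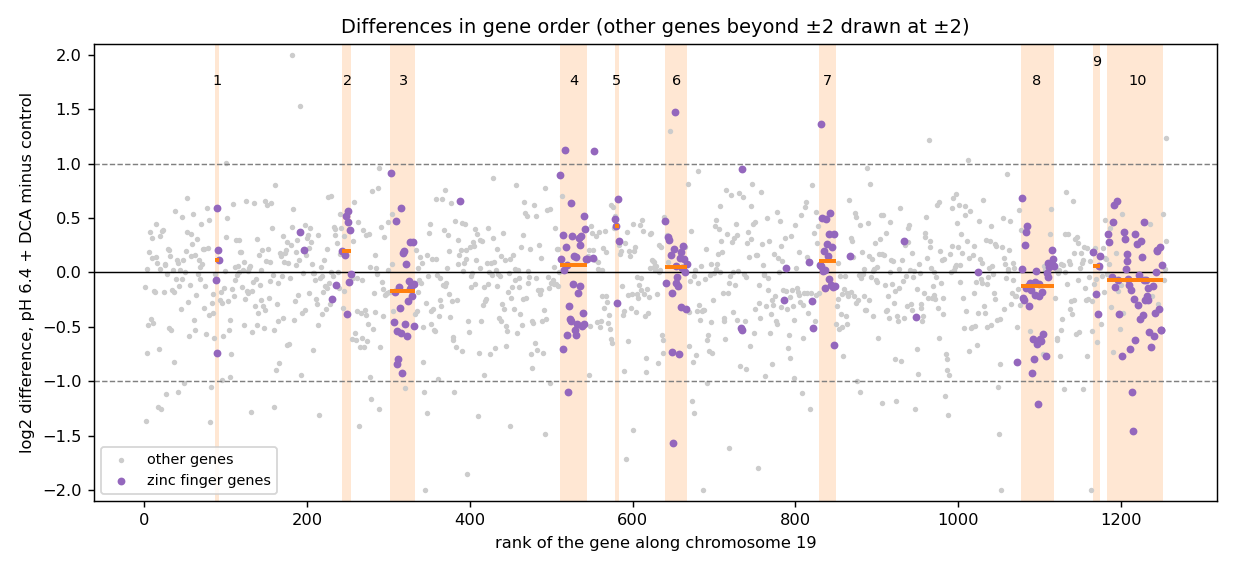
Log2 difference, pH 6.4 + DCA minus control, of the genes of chromosome 19 by rank along the chromosome, with the 233 zinc finger genes in purple and other genes in grey. Shaded bands are the 10 clusters, numbered as in the text, orange bars are their medians and dashed lines mark 2-fold; clusters 3, 8 and 10 have medians below 0 and the other 7 above 0.

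The promoters of the family were compared for sequence features that the choice of genes did not use. RefSeq sequences of GRCh38.p14, from 250 bases before to 50 bases after the annotated start, were at hand for 203 of the 233 genes, with the first listed start taken for each gene, and for 14234 of all 17660 genes. The letters CCGGAAG, the core of sites for ETS factors, occurred on either strand in 44.8% of the family's promoters, in 34.7% of those of ZNF genes elsewhere and in 14.3% of all promoters. The CCAAT box occurred in 53.7% of the family's promoters, 42.6% of those of ZNF genes elsewhere and 36.4% of all. Both motifs together occurred in 26.1%, 16.3% and 4.86%. The longer word TCCAATCA, chosen after the sequences were compared and holding a CCAAT box, was found in 24.1% of the family's promoters, against 7.43% of those of ZNF genes elsewhere and 1.76% of all. The TATA box, as TATAAA, was found in 1.97% of the family and 3.96% of ZNF genes elsewhere. It was found in 8.23% of other genes of chromosome 19 and 9.41% of all. GGGCGG, the GC box, was as frequent in the family, at 67.0%, as in other genes of chromosome 19, at 66.9%, with 59.4% in all. At least 50% G and C with a CpG ratio of observed to expected of at least 0.6 was found in 76.8% of the family's promoters, 80.2% of those of ZNF genes elsewhere and 64.7% of all, so it did not set the family apart from other ZNF genes. These promoters share ancestry, so the counts are not independent, and a match of letters is not a bound site.

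Median differences of genes with and without CCGGAAG, and with and without a CCAAT box, had opposite signs, and their spreads were not compared. The 91 genes with CCGGAAG had a median difference of -0.11 and the 112 without it 0.08. The mean log2 level of both arrays had a median of 7.09 in genes with CCGGAAG and 6.22 in those without it. Whether level plays a part was not tested. Among those with it 1 was higher and 2 were lower, and beside 3.86% of the family past 2-fold nothing is read from these counts. The 109 genes with a CCAAT box had a median of -0.07 and the 94 without it 0.06. The 156 genes with a CpG-rich promoter had a median of -0.0007 and the remaining 47 a median of 0.02. The CpG ratio and the difference correlated at r = -0.12 across the 203 genes, which share arrays and ancestry.

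Genes whose promoters matched each other best included pairs with like and with opposite differences. Each promoter was aligned with those of all other members, and 39 pairs were each other's best match with at least 200 aligned bases and 70% identity. The 2 genes of a pair had differences of the same sign in 20 pairs, 11 of them below 0 and 9 above, and of opposite sign in 19. Among the 13 pairs of at least 85% identity, a limit chosen after the values were seen, 9 had the same sign and 4 opposite signs, and among the 26 less alike pairs 11 had the same sign and 15 opposite signs. The median distance between the 2 differences of a pair was 0.48. For 4 of these pairs, and for ZNF507, which is shown beside them because it was the expressed gene above 2-fold, the 150 bases before the start follow, 5′ to 3′, with the letters CCGGAAG and CCAAT of either strand in capitals. The pairs were chosen after their values were seen.

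ZNF773 and ZNF419 lie next to each other, in cluster 10, and are shown because both were lower, at -1.46 and -1.10. Over their full promoters 216 of 248 aligned bases were identical, or 87.1%. The stretches run over chr19:57499788-57499937 (plus strand) for ZNF773 and chr19:57487600-57487749 (plus strand) for ZNF419.
ZNF773: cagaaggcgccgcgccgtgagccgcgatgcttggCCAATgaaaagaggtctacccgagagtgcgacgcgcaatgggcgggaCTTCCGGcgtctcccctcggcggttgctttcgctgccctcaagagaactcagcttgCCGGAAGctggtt
ZNF419: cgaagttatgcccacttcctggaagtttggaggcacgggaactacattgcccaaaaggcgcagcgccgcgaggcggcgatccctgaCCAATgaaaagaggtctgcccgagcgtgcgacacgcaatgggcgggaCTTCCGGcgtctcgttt
Both stretches hold 1 CCAAT box upstream of an ETS core, and ZNF773 holds a further ETS core near its start.

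ZNF780A and ZNF780B are neighbours that went apart. ZNF780A, the first gene outside the 2-fold threshold among the higher ones, had 9.30 with pH 6.4 + DCA and 8.36 in control, a difference of 0.95. With each array centred on its median, it was past 2-fold, at 1.00. ZNF780B had 7.61 with pH 6.4 + DCA and 8.14 in control, a difference of -0.53. Of 288 aligned promoter bases 244 were identical, or 84.7%. The stretches lie at chr19:40090944-40091093 (minus strand) for ZNF780A and chr19:40056232-40056381 (minus strand) for ZNF780B.
ZNF780A: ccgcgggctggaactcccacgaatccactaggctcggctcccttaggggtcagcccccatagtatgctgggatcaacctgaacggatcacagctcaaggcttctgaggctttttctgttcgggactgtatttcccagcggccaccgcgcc
ZNF780B: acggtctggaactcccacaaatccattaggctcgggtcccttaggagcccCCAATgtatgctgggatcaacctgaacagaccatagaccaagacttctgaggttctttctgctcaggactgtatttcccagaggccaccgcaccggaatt
Neither stretch holds an ETS core, though the full promoter of ZNF780A does and that of ZNF780B does not. Only the stretch of ZNF780B has a CCAAT box.

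ZNF714 and ZNF431, neighbours in cluster 4, also went apart. ZNF714 differed by 0.64 and ZNF431 by -0.45, with 7.43 on the pH 6.4 + DCA array and 7.88 in control, while 273 of 300 promoter bases were identical, or 91.0%. The stretches lie at chr19:21082053-21082202 (plus strand) for ZNF714 and chr19:21141890-21142039 (plus strand) for ZNF431.
ZNF714: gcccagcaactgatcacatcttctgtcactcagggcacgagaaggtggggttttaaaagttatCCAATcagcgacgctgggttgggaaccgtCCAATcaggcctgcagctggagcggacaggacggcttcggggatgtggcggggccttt
ZNF431: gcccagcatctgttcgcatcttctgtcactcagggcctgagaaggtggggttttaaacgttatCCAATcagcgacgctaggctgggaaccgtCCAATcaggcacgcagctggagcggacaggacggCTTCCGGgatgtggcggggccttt
Both have 2 CCAAT boxes, and that of ZNF431 has an ETS core that ZNF714 lacks.

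ZNF91 and ZNF208, of the same cluster, had 262 of 293 promoter bases in common, or 89.4%. ZNF91 differed by 0.52 and ZNF208 by -0.58, with 8.83 on the pH 6.4 + DCA array and 9.40 in control. The stretches lie at chr19:23395472-23395621 (minus strand) for ZNF91 and chr19:22010944-22011093 (minus strand) for ZNF208.
ZNF91: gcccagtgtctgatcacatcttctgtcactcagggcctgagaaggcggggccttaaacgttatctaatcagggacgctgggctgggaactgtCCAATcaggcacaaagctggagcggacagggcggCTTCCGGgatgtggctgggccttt
ZNF208: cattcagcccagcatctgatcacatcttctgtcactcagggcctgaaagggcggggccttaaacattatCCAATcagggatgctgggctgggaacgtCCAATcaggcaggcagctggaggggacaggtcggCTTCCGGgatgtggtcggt
Each has 1 ETS core, with 1 CCAAT box in ZNF91 and 2 in ZNF208.

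The stretch of ZNF507 lies at chr19:32345460-32345609 (plus strand) and holds neither motif, but 16 CpG sites.
ZNF507: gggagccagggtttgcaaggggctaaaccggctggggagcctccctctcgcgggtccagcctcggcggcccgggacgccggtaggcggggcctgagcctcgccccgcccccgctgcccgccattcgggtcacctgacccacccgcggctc

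**Figure D5:**
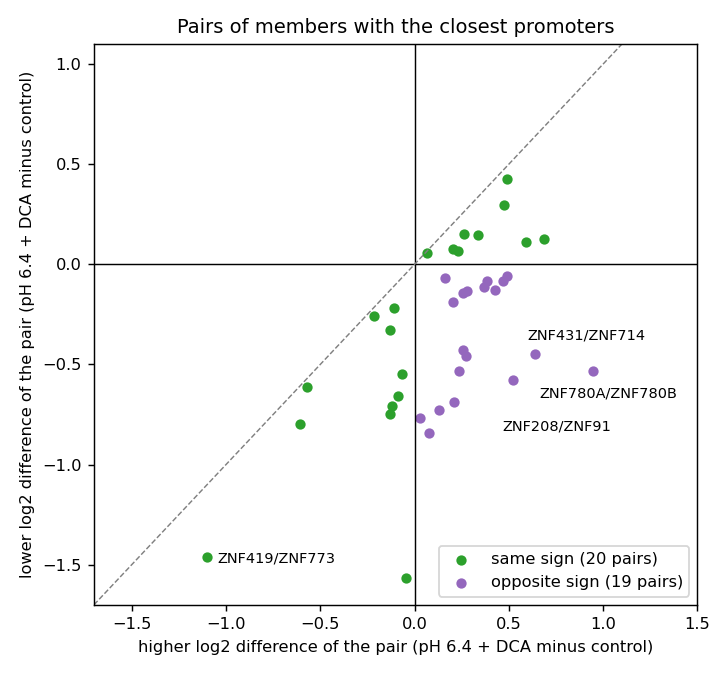
Log2 differences, pH 6.4 + DCA minus control, of the 39 pairs of zinc finger genes whose promoters matched each other best, with the higher difference of a pair on the horizontal axis and the lower on the vertical axis. Points on the dashed line would have equal differences; 20 pairs (green) have the same sign and 19 (purple) the opposite one.

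Sister genes that share a number in their symbol were also compared. ZNF585A and ZNF585B, on neighbouring positions, had differences of -0.13 and -0.75. ZNF587 and ZNF587B had -0.07 and -0.26. ZNF324 had a difference of -0.53, at 4.54 with pH 6.4 + DCA and 5.08 in control, and ZNF324B one of 0.24, at 5.69 and 5.45. With ZNF780A and ZNF780B, 2 of the 4 sister pairs thus had opposite signs. Whether probes of such copies read each other's transcripts was not tested.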

How the data were processed

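Gene expression was measured on 1 Clariom S human array for each of the pH 6.4 + DCA and control cultures of CP-A. The authors deposited log2 expression levels for 21448 rows. The submitters' processing notes name Transcriptome Analysis Console 4.0, while the summarization, the normalization and the build were not given in the sources used here. No further scaling was applied for the values reported. Symbols came from the platform annotation (17709 rows with 1 symbol, 3739 with none), gene order from RefSeq's GRCh38.p14 table, and promoters from RefSeq sequences of that build, aligned globally with free ends. Genes of chromosome Y and unmapped rows were left out. Differences are pH 6.4 + DCA minus control, with 2-fold as threshold. No test was made with 1 array per condition, and precision is limited by that number of arrays.

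Named are the 8 largest increases and decreases among expressed genes, the 6 brightest signals, 2 lists by role and by methylation in cancers, the extremes of each cluster, the genes around the threshold and the cofactors; the promoter pairs and sister genes were chosen after their values were seen. The members and lists were chosen with earlier results of these data known. A planned grouping by KRAB, SCAN and finger number was not run, because protein sequences were not used here. Scripts, tested on simulated data, ran in Python 3.11.15 with pandas 2.3.3, numpy 2.4.6, statsmodels 0.14.6 for lowess and matplotlib 3.10.9 for figures.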

Additional observations from a re-analysis of the deposited data

How the results depend on the processing

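Alternatives were centring, quantile normalization, removal of a lowess trend, 32 added on the linear scale, leaving out dim genes, the mean over rows of a gene, other fold thresholds, a wider symbol pattern of 245 genes and other cluster definitions. With 32 added on the linear scale, 1 zinc finger gene was higher and 2 were lower, in place of 4 and 5, and 3 of the 9 genes were still past 2-fold. At 1.5-fold the counts were 15 and 27, and at 3-fold 0 and 0. With at most 1 other gene between cluster neighbours, 5 cluster medians were below 0, in place of 3. The family's median ranged from -0.053 to 0.019 over these settings. No paired analysis was possible because each condition had 1 array. The values come from 1 array per condition, so culture, array and treatment cannot be told apart.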
